A study of Arabidopsis thaliana with 18 samples.

Results

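The genes described here are the plastid-encoded subunits of the photosynthetic apparatus of Arabidopsis thaliana, the thale cress. A probe set, the group of short probes that reads a transcript on the array, was taken as a member when it matched a single gene of the plastid genome (locus tag beginning ArthCp) whose symbol begins with psa, psb, pet, atp or ndh, or is rbcL. The rule found 43 members among 22746 probe sets other than controls, and among 69 probe sets that matched a single plastid gene. They are 15 genes of photosystem II, 5 of photosystem I, 6 of the cytochrome b6f complex, 6 of the ATP synthase, 10 of the NADH dehydrogenase-like (NDH) complex, and rbcL. These stand for 43 of the 44 distinct photosynthetic symbols of the plastid annotation. The missing symbol is ndhB, whose probe set matched both of its gene copies.

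Expression was measured on 18 ATH1 arrays, the Affymetrix whole-genome array of this species, from plants of ecotype ws-2 with no transgene named in the labels. The labels give every sample the same growth stage. Shoots and all root material were hybridised separately for control, potassium-starved and caesium-treated plants. The starved plants were kept in a dilute Murashige and Skoog (MS) solution lacking potassium. The caesium-treated plants were in a dilute MS solution with 2 mM caesium, a potassium analogue. Each of the 6 groups held 3 arrays, and the design text gives 40 to 50 pooled plants. The labels do not say whether replicates came from separate cultures, so p-values measure only the spread between these samples, which may be technical, and the number of arrays limits the precision. Two-sided tests in limma were run on log2(signal + 16) over all probe sets above a floor on low values, and a call means an adjusted p (Benjamini-Hochberg) below 0.05.

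Chloroplasts keep a small genome of their own, and it encodes the core of each complex that carries light-driven electron flow. The photosystems pass electrons from water to ferredoxin with the cytochrome b6f complex between them, the ATP synthase uses the proton gradient, and the NDH complex returns electrons from ferredoxin to the plastoquinone pool. Most of these genes are transcribed together in polycistronic units and read by a bacterial-type plastid polymerase, a phage-type polymerase, or both, and the remaining subunits come from the nucleus. According to the labels, RNA was primed with oligo-dT, while mature plastid transcripts carry no stable poly(A) tail. The signals therefore report the plastid RNA that the primer reached. Probe sets also differ in how brightly they read, so a brighter probe set does not show a more abundant transcript. In tissue of many cell types, fewer cells of a type and less RNA per cell cannot be told apart.

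Each labelled organ read higher in the summed signal of its own markers. Summed over 5 leaf markers with a named probe set, the signal ranged from 6481 to 13276 on shoot arrays and from 117 to 420 on root arrays. Summed over 4 root markers, it ranged from 2124 to 3664 on root arrays and from 79.4 to 1253 on shoot arrays. PYK10 made up most of the root marker sum on root arrays, where it read 1915 to 3501. On the shoot arrays of replicate 2 it read 1200 in controls, 903 under starvation and 949 with caesium. The other shoot arrays had 46.9 to 521. Signals of 25S ribosomal RNA varied widely between arrays, from 78.0 to 1170 in shoots and from 154 to 2862 in roots. A repeat is named in 2 root titles, that of replicate 1 under potassium starvation and that of replicate 2 with caesium.

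In control shoots the 43 members together gave 1.66% to 2.02% of all signal on an array. The share was 1.29% to 1.56% in potassium-starved shoots and 1.59% to 1.88% in caesium-treated shoots, so the potassium-starved arrays all lay below the other 6. On root arrays it was 0.220% to 0.447%. Between 36 and 39 members exceeded a signal of 100 on every shoot array, against 17 to 25 on root arrays.

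**Figure D1:**
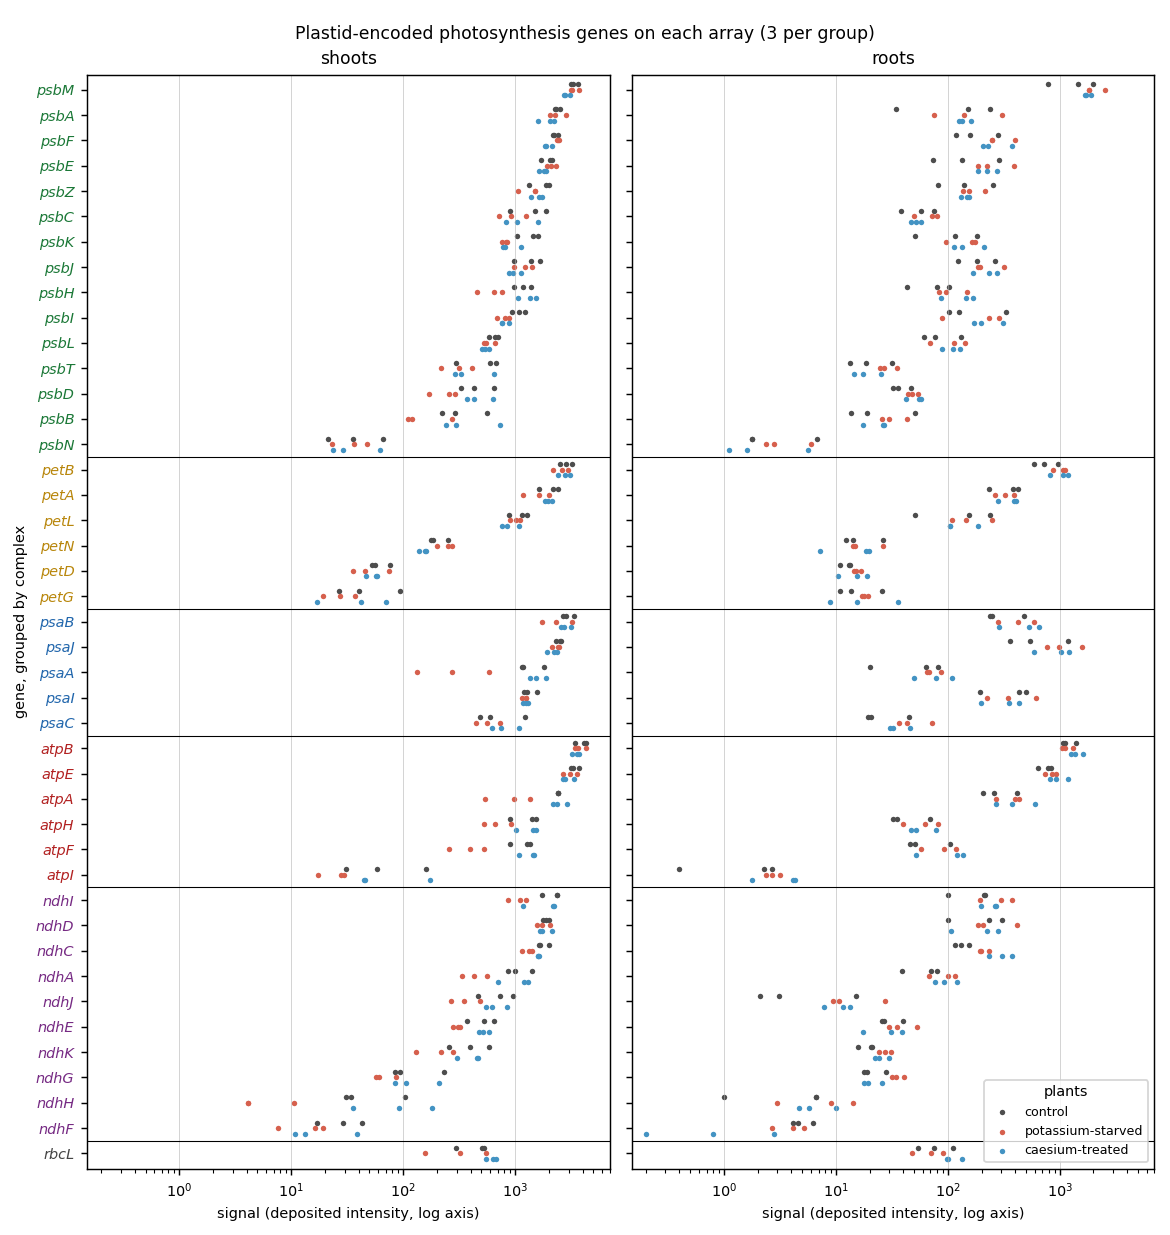
Signal of each of the 43 genes (rows, grouped by complex) on every array, on a log axis, in shoots (left) and roots (right), with 3 points per group coloured by treatment. In shoots the potassium-starved points of psaA, atpA, atpF, ndhA and ndhH lie to the left of both other groups, while those of psbM, psbA and atpB lie among them.

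Potassium starvation lowered part of the set in shoots. Of 42 members tested, 12 fell and 0 rose, and ndhF lay under the floor. Over all 13647 probe sets tested, 29.2% changed in either direction and 17.1% fell. The estimated change was below 0 for 38 of the 42, and their median was -0.43 on the log2 scale, against -0.12 over all probe sets tested. By complex, 5 of 9 tested NDH genes fell, 3 of 6 ATP synthase genes, 3 of 15 photosystem II genes and 1 of 5 photosystem I genes, while 0 of 6 cytochrome b6f genes and 0 of 1 Rubisco gene passed the threshold. At an unadjusted p below 0.05 there were 16 members, all lower, where 25.7% of all probe sets were lower by that rule. Starved values lay wholly below the control values for 13 of the 43, as they did for 26.1% of all probe sets tested. Shoot samples with the same replicate number deviated together, and with the replicate number as a block 20 members fell, where 24.9% of all probe sets did.

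The largest fall was that of psaA (ArthCp022), which encodes a reaction-centre core protein of photosystem I. Its signals were 1800.5, 1155 and 1188 in control shoots and 275, 134 and 582 in potassium-starved shoots. The groups did not overlap, and all 3 starved arrays lay below the lowest control. The mean fell from 1381 ± 363 to 330 ± 229 (SD, n = 3), to 23.9% of control, a log2 change of -2.21 with a standard error of 0.40 (limma adjusted p = 0.00302). psaB, which encodes the other core protein and shares a transcription unit with psaA, read 2692, 2824 and 3369 in controls and 3236, 1730.2 and 2337 under starvation. Those groups overlapped, and the change of -0.32 had a 95% interval from -0.80 to 0.16. The iron-sulphur subunit gene psaC (-0.31) and the small-subunit genes psaI (-0.13) and psaJ (-0.08) did not pass either.

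The ATP synthase genes lie in 2 transcription units, and those that fell all lie in the first. This unit, atpI-atpH-atpF-atpA, encodes the membrane subunits and the alpha subunit of the catalytic head. atpF (ArthCp008) read 1357, 897 and 1269.5 in control shoots and 393, 256 and 526 in starved shoots, with no overlap. The mean fell to 33.4% of control, a log2 change of -1.58 with a standard error of 0.26 (limma adjusted p = 0.00181). atpA (ArthCp007) read 2430.2, 2407 and 2405 in controls and 977, 539 and 1356 under starvation, so the controls lay close together and the starved arrays spread widely below them. Its change was -1.42 with a standard error of 0.28 (limma adjusted p = 0.00425). atpH, for the membrane ring, fell by 0.85, and atpI, for the membrane proton channel, changed by -1.06 with a standard error of 0.50 and did not pass (limma adjusted p = 0.128, and 0.0152 with the block).

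The second unit, atpB-atpE, encodes the beta and epsilon subunits of the same head. The signal of atpB, the brightest ATP synthase probe set, was 3461, 4139 and 4330.5 in controls and 4322, 3447 and 3608.5 under starvation, so the groups overlapped throughout. Its change was -0.07 with a 95% interval from -0.42 to 0.28, and that of atpE was -0.13 with an interval from -0.49 to 0.23. The median over the 4 genes of the first unit was -1.24 and over the 2 genes of the second -0.10. The difference between the units was not tested.

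The NDH genes had a median change of -0.83 over all 10, each with an estimate below 0. Within the long unit ndhH-ndhA-ndhI-ndhG-ndhE-psaC-ndhD, 4 of 7 genes fell. ndhA (ArthCp079), a membrane-arm subunit, read 1407, 1002 and 859 in control shoots and 334.5, 561 and 426 in starved shoots, without overlap. It changed by -1.28 with a standard error of 0.28 (limma adjusted p = 0.00708). ndhI (ArthCp078), an iron-sulphur subunit, read 2358, 2367 and 1756 against 1111, 1246 and 871, and its mean fell to 49.8% of control (limma adjusted p = 0.0156). ndhE fell by 0.71, and ndhG changed by -0.75 (limma adjusted p = 0.144, and 0.00751 with the block).

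At the far ends of that unit the readings differed most. ndhH (ArthCp080) read 104, 30.6 and 34.2 in controls and 10.6, 4.1 and 4.1 under starvation, the groups apart but the starved mean of 6.27 well below the shoot floor of 26.7. Its change of -1.57 (limma adjusted p = 0.0254) therefore rests on values near the bottom of the scale. ndhD, a membrane-arm subunit and the brightest but for ndhI among the NDH probe sets, read 1895, 1773 and 2025 in controls and 2062, 1735 and 1574 under starvation. These overlapped, and the change was -0.09 with a 95% interval from -0.45 to 0.27. In the unit ndhC-ndhK-ndhJ, ndhJ fell by 0.91, while ndhK (-0.92, limma adjusted p = 0.0525) and ndhC (-0.43, limma adjusted p = 0.0533) lay just outside the threshold, and both passed with the block (limma adjusted p = 0.0107 and 0.0430).

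Photosystem II genes had a median change of -0.36. Among the core genes, psbD, for the D2 reaction-centre protein, read 646, 332 and 432 in control shoots and 292, 169 and 258 in starved shoots, with no overlap. It fell by 0.91 (limma adjusted p = 0.0336). psbA, for the D1 protein that is turned over in the light, read 2520.0, 2276 and 2313 against 2850, 2263 and 2049, overlapping, with a change of -0.00 and a 95% interval from -0.39 to 0.39.

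psbB, for the inner antenna CP47, read 557, 223 and 290.1 in controls and 272, 110 and 121 under starvation. The groups overlapped, while each starved array lay below the control of the same number. Its change of -1.03 had a standard error of 0.45 and was not called (limma adjusted p = 0.107), but with the replicate block the standard error was 0.14 and it was called (limma adjusted p = 0.000382). psbC, for the inner antenna CP43, read 1899.9, 897 and 1519 against 1253, 718 and 922, and its change was -0.54 (limma adjusted p = 0.220, and 0.0416 with the block). Of the small subunits, psbH fell by 0.92 and psbK by 0.71. The cytochrome b subunit genes psbE (0.10) and psbF (0.09) and the small-subunit gene psbM (0.00), the brightest photosystem II probe set, were not called. Their 95% intervals ran from -0.25 to 0.45, -0.21 to 0.39 and -0.32 to 0.33.

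**Figure D2:**
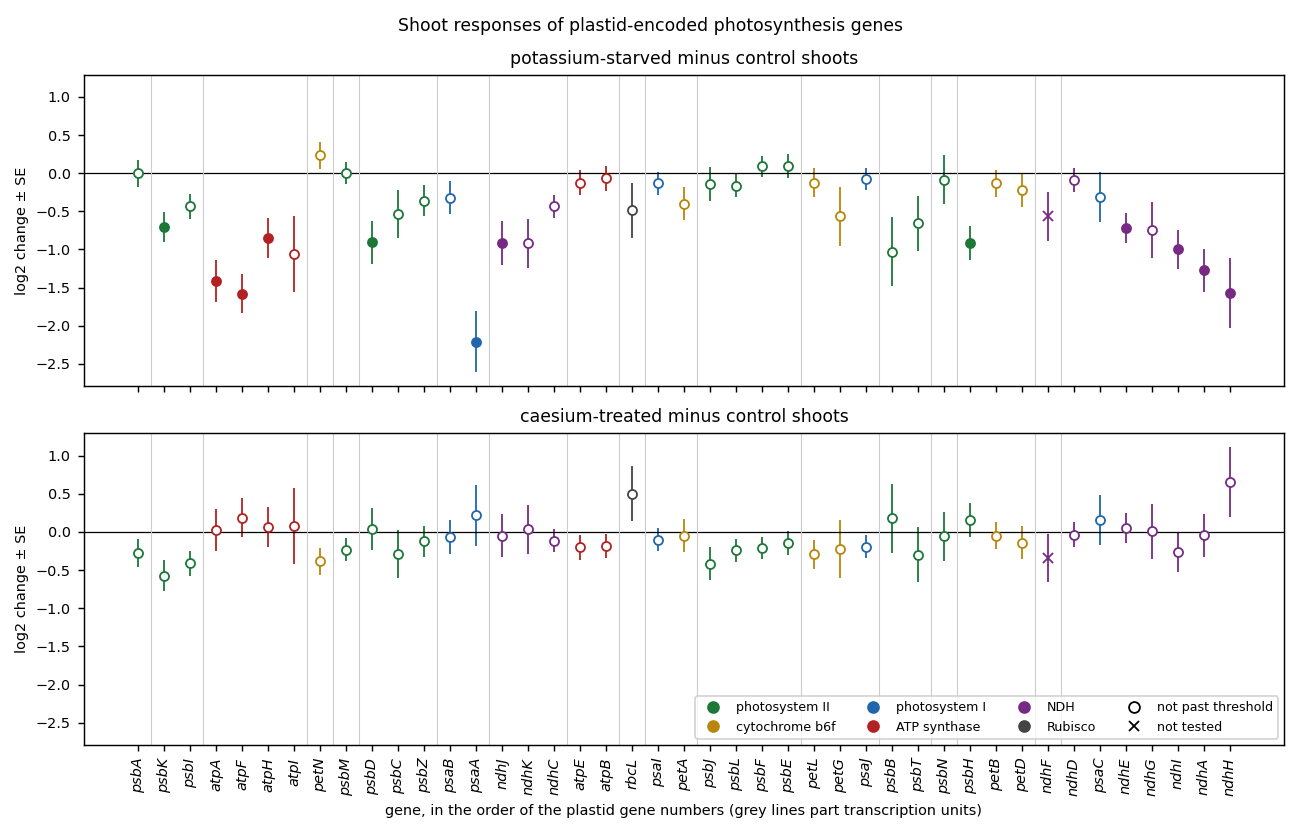
Log2 change (vertical axis, ± SE) of each gene in plastid gene order against control shoots, for potassium-starved (upper) and caesium-treated shoots (lower), coloured by complex, with filled points past the threshold. The upper panel shows 12 filled points, all below 0, the lowest being psaA at -2.21, and the lower panel shows none.

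None of the cytochrome b6f genes was called under potassium starvation, and neither was rbcL. petA, for cytochrome f, read 2182, 1647 and 2428 in controls and 1990.1, 1170.4 and 1626 under starvation, and changed by -0.40. petB, for cytochrome b6 and the brightest of the group, read 2493.5, 2861 and 3196.5 against 2985, 2185 and 2642, and changed by -0.13 with a 95% interval from -0.52 to 0.25. petD, for subunit IV, read 76.4, 53.2 and 56.1 against 74.7, 45.9 and 35.4, and changed by -0.23. The groups of all 3 genes overlapped. rbcL, for the large subunit of Rubisco, read 532, 299 and 505 in controls and 545, 156 and 321 under starvation, so it overlapped as well, and its change of -0.49 had an interval from -1.29 to 0.31.

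Members of a transcription unit did not all read alike. The 4 genes of psbE-psbF-psbL-psbJ had a median of -0.03, while psbB, psbT and psbH read -1.03, -0.66 and -0.92 beside -0.13 for petB and -0.23 for petD of the same unit. The median change lay further below 0 in dimmer members, while calls were most frequent at middle brightness. Of the 11 members above a control shoot signal of 2000, 2 fell and the median was -0.13, of the 20 between 500 and 2000, 8 fell with a median of -0.49, and of the 12 under 500, 2 fell with a median of -0.66. The last group includes ndhF, which was not tested. The groups were cut on control values that also enter the change, and shares over all probe sets at each brightness were not computed. The part of brightness in the result was not tested.

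**Figure D3:**
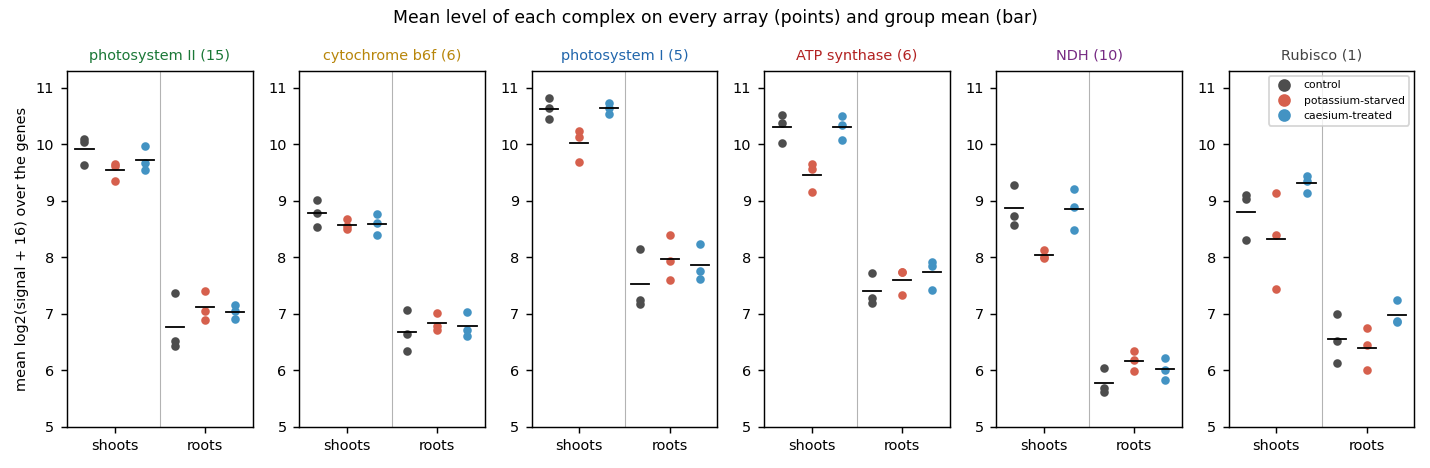
Mean log2(signal + 16) over the genes of each complex (number in brackets) on every array, with the group mean as a bar, for shoots (left in each panel) and roots (right), coloured by treatment. The potassium-starved shoot arrays lie below all control shoot arrays for the ATP synthase, the NDH complex and photosystem I, and overlap them for photosystem II, the cytochrome b6f complex and Rubisco.

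With each array left out in turn, psaA, atpF, atpA and ndhA passed in all 6 fits. The number lower was 5 without control replicate 1, 6 without potassium-starved replicate 2 and 7 without control replicate 3, against 12, 14 and 8 without the other arrays. ndhI and psbH lost the call only without control replicate 1 (limma adjusted p = 0.0548 and 0.0516). For ndhJ, psbD, atpH, ndhE, psbK and ndhH the highest adjusted p in limma without an array ranged from 0.0821 to 0.127, with the losses among those same arrays, potassium-starved replicate 3 and, for psbK, potassium-starved replicate 1 and control replicate 2.

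Other groups moved in the same shoots. Of the 26 other genes matched on the plastid genome, 25 were tested and 6 fell, with a median of -0.95. Of 78 listed nuclear loci for the same complexes, 16 had a named probe set, and 6 of these fell and 0 rose, with a median of -0.45. They were the NDH subunit genes NDHN (-1.32) and NDHL (-0.89), the light-harvesting genes LHCB4.2 (-0.94) and LHCB4.1 (-0.53), the photosystem II assembly factor gene PSB27 (-0.60) and PGRL1B (-0.47), a cyclic electron flow gene. Of the nuclear genes listed for plastid transcription and RNA maturation, only the polymerase gene RPOTMP had a named probe set, and it lay under the floor. Of 6 listed senescence markers, the 3 with a named probe set, SAG29, WRKY53 and WRKY6, all rose. Their summed signal was 458 to 653 in starved and 41.6 to 126 in control shoots. With caesium it was 239 to 304, and 1 of the 3 was called higher than in controls. Of 9 listed leaf markers, 5 had a named probe set and 4 of these fell. Of those that fell, LHCB4.1 and LHCB4.2 also stand among the nuclear genes above. The marker lists were chosen with earlier results of these data known, so they give no independent support. The part of senescence and of leaf tissue in the result was not tested.

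Caesium left no member past the threshold in shoots. Of 42 tested, 0 were called, where 0.997% of all probe sets were, 2 passed an unadjusted p of 0.05, psbK and psbI, where 15.2% of all probe sets did, and the lowest adjusted p in limma was 0.193. The median change was -0.08, against 0.02 over all probe sets tested. The 95% interval lay within a 2-fold change in either direction for 34 of the 42. The exceptions were psbK, atpI, psaA, rbcL, petG, psbB, psbT and ndhH.

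The genes that fell most under potassium starvation read as follows with caesium. psaA read 1873, 1529 and 1369, overlapping the controls, a change of 0.22 with a standard error of 0.40. atpF read 1439, 1475.5 and 1080.0, with a change of 0.19, and atpA read 2363, 2919.5 and 2167, with a change of 0.03. ndhH read 180.5, 91.1 and 36.0, its highest array above every control, and changed by 0.65 with an interval from -0.35 to 1.65.

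A few genes had caesium groups apart from the controls without passing the test. rbcL read 680.5, 637 and 547 with caesium, above all 3 controls, a change of 0.50 (limma adjusted p = 0.574). psbA, psbI, psbM, psbF and petN lay below all 3 controls, with changes of -0.27, -0.41, -0.23, -0.21 and -0.38. Of all probe sets tested, 14.8% had the caesium group wholly above the control group and 10.7% wholly below it. For the 26 other plastid genes the median was 0.26, and for the 16 nuclear genes -0.29, with 0 called in either list.

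Between the treated shoots, 11 of 42 members were higher with caesium than with potassium starvation and 1, petN, was lower, where 28.5% of all probe sets were called, 18.7% higher and 9.72% lower. The comparison shares the potassium-starved arrays with the one above, so the values are given side by side only. psaA was higher by 2.43, ndhH by 2.22 and atpF by 1.77 on the log2 scale (limma adjusted p = 0.00285, 0.00675 and 0.00171). For ndhH the starved mean of 6.27 lay well below the shoot floor of 26.7, and the caesium values spread from 36.0 to 180.5. atpA, ndhA, psbH, ndhK, psbD, atpH, ndhJ and ndhE were higher by 0.77 to 1.44. petN, for a small cytochrome b6f subunit, read 161, 138 and 155 with caesium and 251, 273 and 203 under starvation, the groups apart, with a log2 difference of -0.62 (limma adjusted p = 0.0249). rbcL was at 621 ± 68.1 with caesium and 341 ± 195 (SD, n = 3) under starvation, a difference of 0.99 that did not pass (limma adjusted p = 0.0631). It passed with the replicate block (limma adjusted p = 0.0114) and with array weights (limma adjusted p = 0.0305).

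Of these 12 genes, psaA, atpF, atpA, ndhA, ndhH and psbH passed with each array left out in turn. The count fell to 6 without caesium-treated replicate 1, 6 without potassium-starved replicate 2 and 7 without caesium-treated replicate 2, and petN passed in 1 of 6 such fits. With the replicate number as a block it was 17, where 39.3% of all probe sets were called.

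Every member tested was lower in control roots than in control shoots. Of 38 tested, 38 were lower, with a median log2 difference of -3.19, where 22.8% of all probe sets were lower in roots and 54.6% differed. Of these 38, 7 had a control root mean below the root floor, namely petD, ndhG, petN, psbB, ndhK, psbT and ndhJ, and passed the filter on the mean of 18 arrays through their shoot level. All 43 had root values wholly below the shoot values, as did 25.1% of all probe sets tested.

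The organ difference varied over the members. psbM kept the largest share in roots, with 1459, 779 and 1976 in control roots and 3311, 3136 and 3666 in control shoots, 41.7% of the shoot mean (log2 difference -1.35, limma adjusted p = 8.14e-05). atpB followed among those above the root floor, at 30.1%, then psaJ at 28.1%, psaI at 27.8%, petB at 26.6% and atpE at 22.3%. rbcL stood at 18.1%. At the other end were psaA at 4.00%, psbC at 3.97%, psaC at 3.65% and atpH at 3.54%, beside atpI at 2.18% and ndhJ at 0.940%, whose root means lay below the floor.

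By complex, the median root level was 18.4% of the shoot level for cytochrome b6f genes, 10.9% for photosystem I, 8.90% for the ATP synthase, 8.35% for photosystem II and 7.86% for the NDH complex. Root means lay below the floor for 3 of 6, 0 of 5, 1 of 6, 3 of 15 and 5 of 10 of these. The complexes overlapped widely, with single genes from 3.97% to 41.7% in photosystem II alone. The 16 nuclear genes had a median log2 difference of -5.43 between control roots and shoots, and the 26 other plastid genes -1.57, over all their members.

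**Figure D4:**
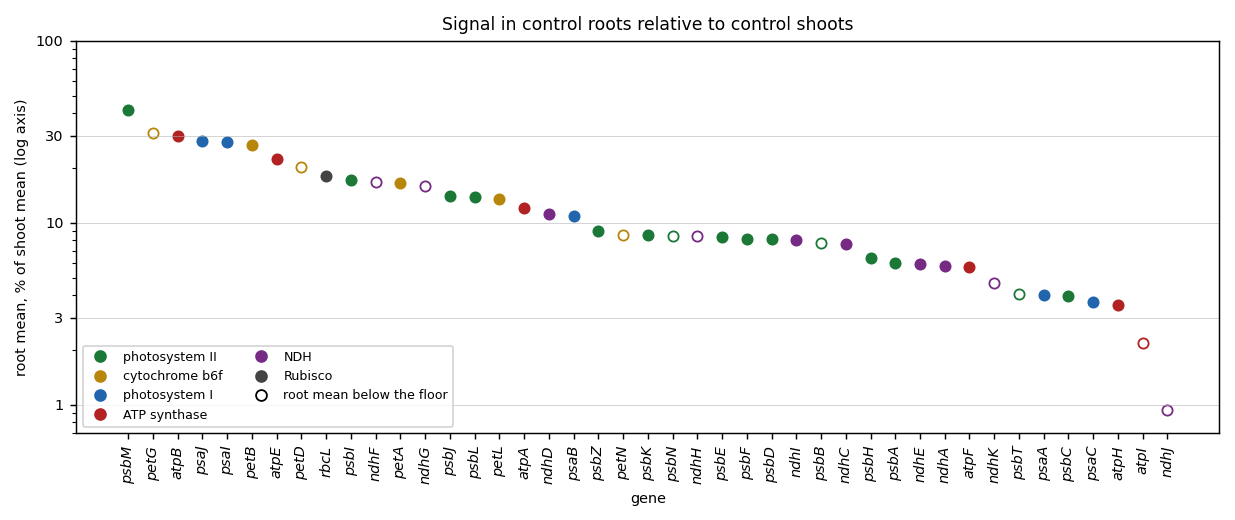
Mean signal in control roots as a percentage of the control shoot mean (log axis) for each gene, in descending order and coloured by complex, with open points where the root mean lay below the floor. Values run from 41.7% for psbM to 0.940% for ndhJ.

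In potassium-starved plants 37 of 38 tested members were lower in roots, with a median of -2.30, and in caesium-treated plants 38 of 38, with a median of -2.73. Of all probe sets, 24.5% and 21.7% were lower. The exception under starvation was ndhG (limma adjusted p = 0.0505). Root means of petN, petD and ndhJ lay below the root floor in starved plants. With caesium the root means of these genes and of ndhG, psbB, ndhK and psbT did. Such genes passed the filter through their shoot level. psaA, at 4.00% of the shoot level in controls, stood at 22.3% in starved plants and 4.96% in caesium-treated plants.

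Within roots no member passed the test for either treatment. Of 31 members above the root floor, 0 were called under potassium starvation, where 1.47% of all probe sets were. Their median change was 0.36, against -0.02 over all probe sets tested, and 28 of 31 estimates were above 0. With an array left out the median ran from 0.162 to 0.652. The mean log2 signal over all 43 members was 7.15 in control replicate 3, above 6.87 and 6.91 in starved replicates 1 and 3. At an unadjusted p below 0.05 there were 5, all higher, namely ndhC, ndhI, psaC, psbF and psbM, where 8.01% of all probe sets were higher by that rule. ndhI read 101, 209 and 213 in control roots and 195, 300.3 and 377 in starved roots, overlapping, a change of 0.71 (limma adjusted p = 0.218). With array weights it was the 1 member called (limma adjusted p = 0.0426). For 4 of the 43, ndhC, ndhK, petD and ndhG, the starved values lay wholly above the controls, as they did for 10.2% of all probe sets tested. Among these, ndhK, petD and ndhG lay under the root floor and were not tested. psaA read 20.0, 64.3 and 81.6 in control roots and 87.6, 65.5 and 68.0 in starved roots, a change of 0.44 with an interval from -0.29 to 1.18.

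Caesium gave 0 of 31 in roots, where 0 of all 13647 probe sets, or 0%, were called. The median was 0.40, against 0.01 over all probe sets, and ran from 0.201 to 0.666 with an array left out. An unadjusted p of 0.05 was passed by 3 members, ndhC, psbH and ndhA, where 9.91% of all probe sets did. ndhC (ArthCp027), an NDH membrane-arm subunit, read 132, 117 and 156 in control roots and 375, 306 and 233 with caesium. The groups were apart, with means of 135 ± 19.8 and 305 ± 70.9 (SD, n = 3), and the log2 change was 1.07 with a 95% interval from 0.68 to 1.46 (limma adjusted p = 0.0644). Same-numbered samples deviated together here, and with the replicate block ndhC was called (limma adjusted p = 0.0456), where 0.374% of all probe sets were. Between the treated roots 0 of 31 members were called, where 5.06% of all probe sets were, with a median of -0.00 and 2 members, ndhC and rbcL, at an unadjusted p below 0.05, where 24.8% of all probe sets passed that rule.

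Leaf marker signal and member signal on root arrays are given side by side. The summed member signal was 7833, 6430.4 and 11973 in control roots, 10037, 13643 and 9769 in potassium-starved roots and 10767, 11845 and 10414 in caesium-treated roots. The summed signal of the 5 leaf markers on the same arrays was 117, 127 and 231, then 170.4, 278 and 179, then 289, 420 and 294. In each treatment the array with the highest member signal was also the highest in leaf markers. The remaining arrays of each treatment stood in opposite order by the sums, but their leaf marker sums lay close together. Summed over the 16 nuclear genes, the signal was 512, 431 and 807, then 611, 983 and 613, then 913, 1240 and 946. In control roots these sums had the order of the member signal. In treated roots the remaining arrays again stood in opposite order, by 611 to 613 under starvation. The highest member signal, 13643 under starvation, came with a leaf marker signal of 278, below every caesium-treated root array. Its nuclear sum of 983 lay among those of the caesium-treated root arrays. Of the 16 nuclear genes, 10 had the caesium group wholly above the control roots, where 7.46% of all probe sets did, though 0 of the 11 tested were called. Whether leaf material contributed to the root values was not tested.

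The response to potassium starvation differed between the organs for 8 of 31 members tested, where 10.0% of the 11867 probe sets tested for it differed in either direction and 4.89% were more positive in roots. In each of the 8 the change was more positive in roots than in shoots. The estimate was above 0 for all 31, with a median of 0.65, against 0.08 over all probe sets tested. The largest difference was that of psaA, 2.65 on the log2 scale with a standard error of 0.57 (limma adjusted p = 0.00702), from -2.21 in shoots and 0.44 in roots. atpF (1.96), ndhA (1.77), atpA (1.76), ndhI (1.70), psbH (1.39), psbD (1.16) and ndhC (1.01) also passed. psaA, atpF, atpA, ndhA, ndhI and ndhC passed in all 12 fits with 1 array left out, psbH in 7 and psbD in 5.

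**Figure D5:**
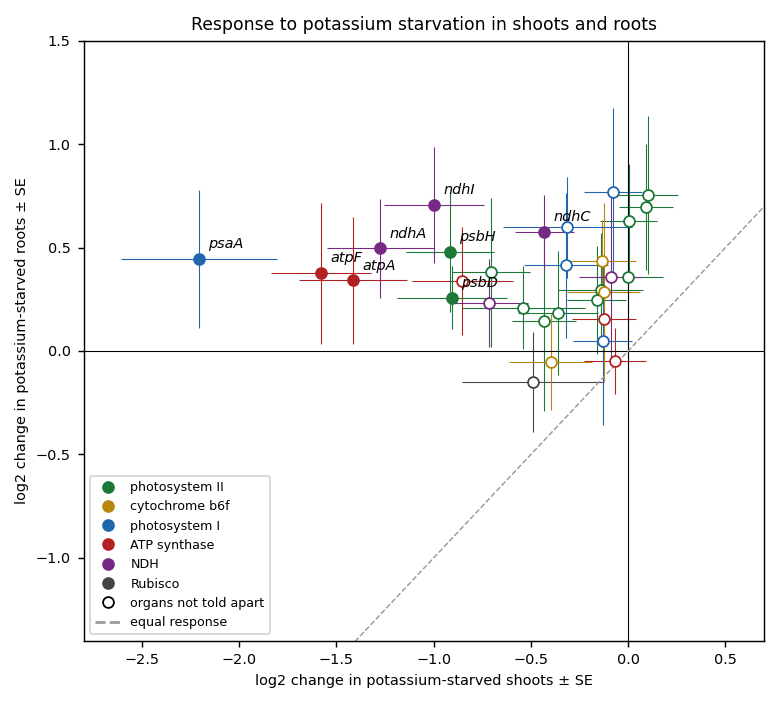
Log2 change under potassium starvation in roots (vertical axis, ± SE) against shoots (horizontal axis, ± SE) for the 31 genes tested in both organs, coloured by complex and named where the organs differed past the threshold. The 8 named points lie left of 0 and above the dashed line of equal response, from ndhC at -0.43 in shoots to psaA at -2.21.

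For caesium 1 of 31 members differed between the organs, where 0.177% of all probe sets did. It was ndhC, with a difference of 1.19 and a standard error of 0.23 (limma adjusted p = 0.0417), from -0.12 in shoots and 1.07 in roots. It passed in 1 of the 12 fits with an array left out, that without caesium-treated root replicate 3, and over the 12 the adjusted p in limma ran from 0.0327 to 0.136.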

How the data were processed

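Per the labels, biotin-labelled cRNA from shoots or roots was hybridised to 18 ATH1 arrays, 3 in each of 6 groups. The deposited values are linear intensities, 1 per probe set, which the authors had already scaled: the mean of each array without the lowest and highest 2% was 100.007 to 100.01. The software and the detection calls are not given in the sources used here. Genes were named from the platform table, and plastid locus tags from RefSeq.

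The intensities were tested as log2(intensity + 16), a scale that understates changes of low signals, with limma 3.58.1 in R 4.3.3 (lmFit, eBayes). Probe sets under the 40th percentile of the mean log2 signal (26.7 in shoots, 27.7 in roots, 30.1 over 18 arrays) were left out, and the 64 control probe sets before that. Treatments were compared within the 9 arrays of an organ, and organs and their interactions over 18 arrays. Adjusted p-values run over all probe sets tested. All members could be named, with values by array for core subunit genes, the brightest of each complex and the largest changes. Other genes came from lists of nuclear subunits, plastid gene expression and markers. Members and lists were chosen with earlier results of these data known. Transcription units are those of textbook knowledge.

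Replicate numbers from the labels were taken to pair the samples of a comparison where every same-numbered pair had correlated deviations above 0.1. The lowest correlation was 0.319 for potassium starvation and 0.495 for caesium in shoots, and 0.180 for caesium and -0.03 for potassium starvation in roots. The alternatives were pseudocounts of 1 and 64, no filter or the 60th percentile, quantile or median scaling, array weights, a replicate block, covariates for scanner background and 25S signal, leaving out each array, and leaving out the 2 repeats. Only the main fits were checked on simulated data, in which arrays varied independently of their replicate number.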

Additional observations from a re-analysis of the deposited data

Results flagged for a closer look

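The response of some genes to a treatment differed between roots and shoots by the interaction term in limma. For potassium starvation, roots minus shoots on the log2 scale, psaA differed by 2.65, atpF by 1.96, ndhA by 1.77, atpA by 1.76, ndhI by 1.70, psbH by 1.39, psbD by 1.16 and ndhC by 1.01. The adjusted p in limma ranged from 0.00702 for psaA to 0.0332 for psbD. For caesium, ndhC differed by 1.19 (limma adjusted p = 0.0417). The shoot estimate was the lower in each of these.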

How the results depend on the processing

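Same-numbered samples were paired in the shoot comparisons and for caesium in roots. With the replicate block, potassium starvation called 20 members in shoots in place of 12, adding psbB, psbC, psbI, psbT, atpI, ndhC, ndhG and ndhK, and caesium called 1 in roots in place of 0. In potassium-starved roots, where the numbers did not pair the samples, the block gave 1 (ndhI, limma adjusted p = 0.0286). Array weights gave 2 in caesium-treated shoots, psbI and psbK, and 1 in potassium-starved roots, each in place of 0. The caesium difference between organs went from 1 to 0 with a pseudocount of 1, no filter, quantile normalization, the scanner background or 25S covariate, or without the 2 repeat root arrays, where ndhC had an adjusted p in limma of 0.0508 to 0.123. For the organ difference under potassium starvation, atpF and atpA each lost the call with array weights and with the scanner background (for atpF, limma adjusted p = 0.0680 and 0.0567), so that each passed in 9 of 11 settings, psbD in 8 and psbH in 10. ndhH lost its call in potassium-starved shoots with a pseudocount of 64 or no filter (limma adjusted p = 0.102 and 0.0685) and was not tested at the 60th percentile, and ndhJ, psbD, atpH and psbK each passed there in 9 of 10 settings. Between the treated shoots ndhK passed in 4 of 10 settings, ndhJ in 6, psbD in 8, and atpH and ndhH in 9 each. The cause was not tested. Among the called members with the largest changes in each comparison, no direction turned in any alternative run that tested them. Members that were not called were not followed in this way. With an array left out, the member median between the treated roots ran from -0.156 to 0.131.

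With each array left out, the calls ran from 5 to 14 for potassium starvation and 0 to 0 for caesium in shoots, and from 6 to 13 between the treated shoots. They were 0 in all 3 root comparisons. They ran from 37 to 38, 36 to 37 and 36 to 38 for the organs in control, potassium-starved and caesium-treated plants, and from 6 to 12 and 0 to 1 for the organ differences in response. Signals near the floor limit 12 members in roots, which were not tested there.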
